A study of Rattus norvegicus with 9 samples.

Results

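The comparison is between 3 days and 1 day of dehydration in the supraoptic nucleus of the rat, that is, between a sustained and an early stage of water loss. Its members are the 3 arrays whose labels give 3 days of dehydration and the 3 whose labels give 1 day, 6 of the 9 arrays in the series, with all 8740 probe sets that are not Affymetrix controls. The titles letter the arrays of each group a, b and c, and each 3-day array was paired with the 1-day array of its letter. All the rats were male Sprague Dawley rats aged 10 to 12 weeks. The other 3 arrays carry RNA of control rats that were not dehydrated, and they entered the fit only through the shared estimate of the spread. The labels do not say whether an array holds the tissue of 1 animal or of a pool, so a p-value here reflects how far these samples vary among themselves, some of which may be technical.

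The supraoptic nucleus is a compact cell group of the hypothalamus made largely of magnocellular neurosecretory neurons. These neurons make vasopressin (Avp) or oxytocin (Oxt) from large precursors, carry the hormones down their axons and release them from the posterior pituitary into the blood. Loss of body water raises the osmolality of the blood, drives these neurons to fire and release hormone, and is known for a strong response of hormone precursor genes in this nucleus. Glia, blood vessels and blood left in the tissue contribute RNA to a piece of it as well.

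No probe set passed the test between 3 days and 1 day. Of 5247 probe sets bright enough to test, 0 (0.0%) had a limma p under 0.05 after Benjamini-Hochberg adjustment, and the smallest adjusted p was 0.7705. At an unadjusted p under 0.05 there were 123 probe sets higher at 3 days (2.34%) and 152 lower (2.9%). With each array centred on its median, the unadjusted split turned to 151 higher and 124 lower. The replicate letter was a term of the fit, and without it 96 probe sets had an unadjusted p under 0.05. The genes below are therefore described by their values on each array, and "higher" and "lower" refer to those values only.

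Signals are MAS5 intensities on a linear scale, and differences are on the scale log2(signal + 4), 3 days minus 1 day, given with the standard error of the fit over 3 arrays a group. On that scale the median difference over all tested probe sets was 0.00 (0.0013) and the median size of a difference was 0.24, against a median standard error of 0.30. Of the tested probe sets, 657 (12.5%) were higher at 3 days in all 3 letter pairs, 679 (12.9%) were lower in all 3, and 3911 were mixed. The 3-day arrays all lay above the 1-day arrays for 160 probe sets (3.05%) and all below for 140 (2.67%). The 3 letter pairs gave nearly unrelated pictures. Across the 5247 probe sets, whose values depend on one another, the differences of letters a and b had a Pearson correlation of -0.02, those of a and c 0.04 and those of b and c -0.09, and the shares with the same sign were 50.3%, 51.8% and 49.1%.

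The gene with the smallest p was Kcnab1, which codes for an accessory beta chain of voltage-gated potassium channels. Its signals were 17.1, 13.7 and 10.8 on the 1-day arrays a, b and c and 73.6, 91.1 and 63.3 on the 3-day arrays. Every 3-day array stood well above every 1-day array, and the 3 letters differed by similar amounts, 1.88, 2.43 and 2.19. The control arrays read 11.7, 27.3 and 10.2, overlapping the 1-day arrays and below the 3-day arrays. The difference was 2.16 ± 0.39 (unadjusted p 0.0003737, limma adjusted p 0.7705), and it lay between 1.62 and 2.38 under all 18 alternatives run for it. The mean signal was 16.4 ± 9.5 (SD) in controls, 13.9 ± 3.2 at 1 day and 76.0 ± 14.1 at 3 days. The first 2 means lie under the filter of 23.1, so the probe set was tested only because of its 3-day signals, and no detection calls say whether it was measured at 1 day.

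**Figure D1:**
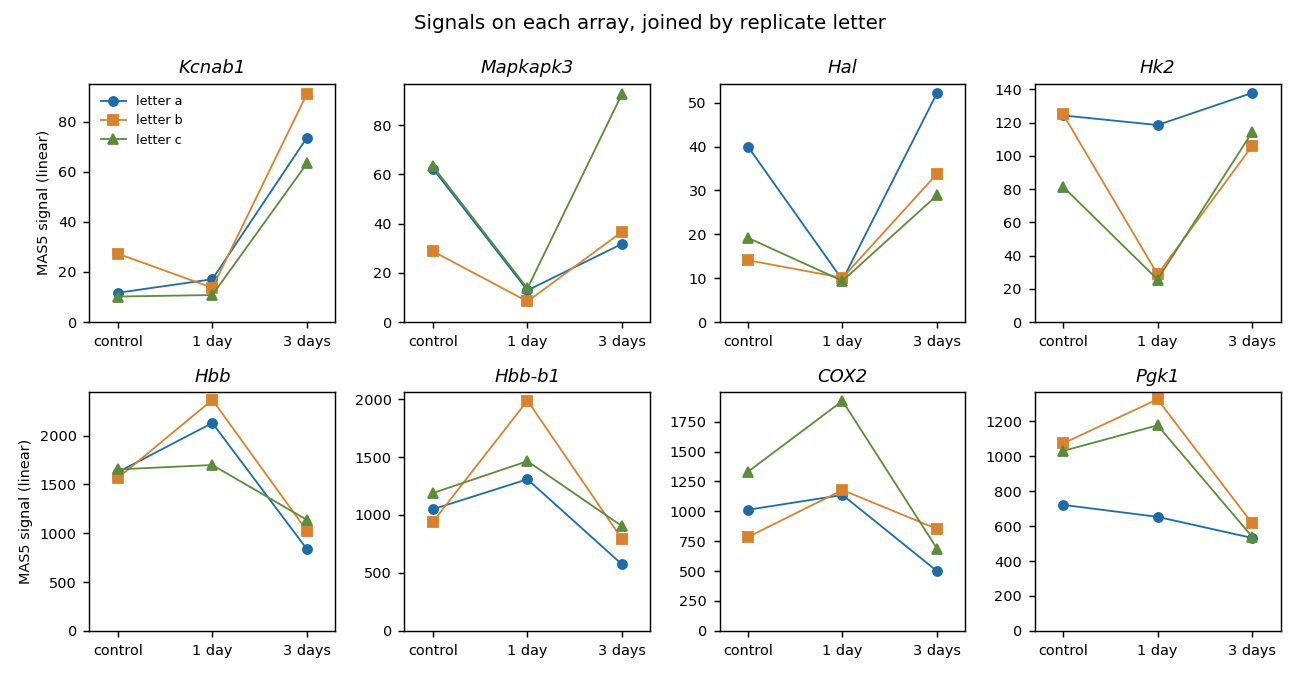
MAS5 signal (linear axis from 0) on each control, 1-day and 3-day array for 4 of the genes that led the higher direction (upper row) and 4 that led the lower direction (lower row); lines join arrays of one replicate letter. Kcnab1 stood at 63.3 to 91.1 at 3 days against 10.8 to 17.1 at 1 day, whereas Hk2 differed little in letter a, and Hbb was between 836 and 1136 at 3 days against 1698 to 2365 at 1 day.

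Behind Kcnab1 came 11 genes that were higher at 3 days in all 3 letters. Mapkapk3, a kinase that MAP kinases activate, read 12.9, 8.4 and 13.7 at 1 day and 31.8, 36.7 and 92.7 at 3 days (difference 1.75 ± 0.39, unadjusted p 0.001732). The groups did not overlap, but the control arrays, at 62.4, 28.8 and 63.4, overlapped the 3-day arrays, and only the 1-day arrays were low. A second Mapkapk3 probe set gave 0.98 ± 0.38. Hal, the enzyme that breaks down histidine, read 9.6, 10.1 and 9.4 at 1 day and 52.2, 33.8 and 28.9 at 3 days (1.59 ± 0.44). Its 1-day arrays were low and close together, and the controls, at 40, 14.1 and 19.2, were above all of them. The Hal means were 24.4 in controls, 9.7 at 1 day and 38.3 at 3 days. It passed the filter of 23.1 only with its 3-day signals, and its other probe sets, at mean signals of 9.4 and 13.1, did not.

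For several of these genes letter a showed little and letters b and c much. Hk2, a hexokinase that feeds glucose into glycolysis, read 118.5, 28.7 and 25.6 at 1 day and 137.8, 105.9 and 114.2 at 3 days (1.32 ± 0.38). The 1-day array of letter a was level with the 3-day arrays and with the controls of letters a and b, at 124.3 and 125.1. Cckbr, the receptor for gastrin and cholecystokinin that predominates in brain, had the same shape: 96.3, 20.3 and 29.4 at 1 day and 122.9, 68.6 and 106.6 at 3 days (1.22 ± 0.35). The Drd5 dopamine receptor read 82.4, 19.8 and 44.2 at 1 day and 95.6, 86.7 and 106.4 at 3 days (1.11 ± 0.37). Here the groups did not overlap, but the gap in letter a was small. Phf7 (0.96 ± 0.29) and Csf2rb (0.86 ± 0.28), the shared beta chain of several cytokine receptors, also had their smallest difference in letter a, at 0.27 and 0.25.

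Rnf4, a ubiquitin ligase that acts on SUMO-modified proteins, went the other way among the letters. It read 19.5, 12.8 and 61.1 at 1 day and 89.3, 55.7 and 70.7 at 3 days (1.34 ± 0.40), so that letters a and b differed strongly and letter c hardly. Mmp2, a protease of the extracellular matrix, read 40.2, 14.5 and 38.4 at 1 day and 60.7, 80.2 and 73.9 at 3 days (1.20 ± 0.38). Its groups did not overlap, and the largest step was in letter b. Gpt, an alanine aminotransferase, and Lim2, a membrane protein first known from the lens, completed the 12 with differences of 0.80 ± 0.26 and 0.79 ± 0.26.

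These 12 genes were picked on this difference, so what they share is given as a description. In 6 of the 12 the groups did not overlap, which was so in this direction for 3.05% of all tested probe sets. In 9 the mean signal was below 100 at both times. The lowest of all 9 arrays was a 1-day array in 11 of the 12, namely 1-day b in 7 and 1-day c in 4. In all 12 the mean of the controls lay above the 1-day mean and below the 3-day mean.

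**Figure D2:**
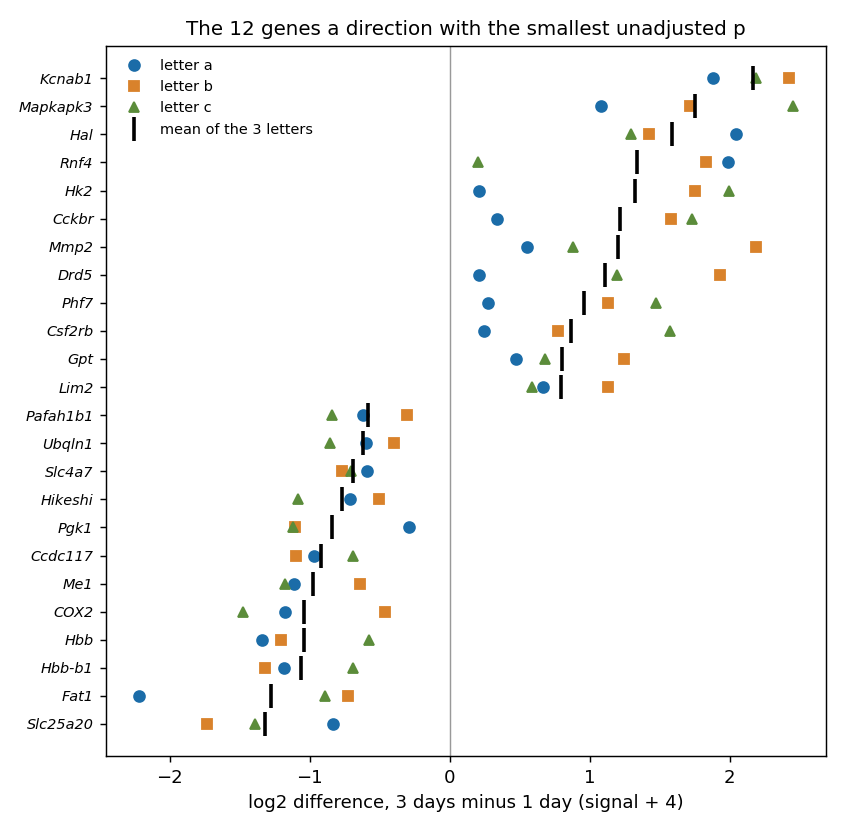
Difference between 3 days and 1 day (log2 of signal + 4) in each replicate letter for the 12 genes a direction with the smallest unadjusted p among those in 1 direction in all 3 letters; black ticks are the mean of the letters. Kcnab1 has 3 similar values (1.88, 2.43 and 2.19), whereas Hk2 has 0.21 in letter a against 1.75 in letter b; choosing on agreement between letters puts all points of a gene on 1 side of 0.

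In the other direction the smallest p-values belonged to 2 beta-globin genes, which encode the beta chains of the oxygen carrier hemoglobin and are made by red blood cell precursors. Hbb read 2128, 2365 and 1698 at 1 day and 836, 1023 and 1136 at 3 days (difference -1.04 ± 0.21, 2.06-fold lower, unadjusted p 0.0008767, limma adjusted p 0.7705). Hbb-b1 read 1308, 1987 and 1464 at 1 day and 574, 793 and 904 at 3 days (-1.07 ± 0.22). Both probe sets carry the suffix that Affymetrix gives to probes shared within a gene family, so their signals may include other beta-globins. In both genes every 3-day array was below every 1-day array and below every control array, the controls being 1564 to 1653 for Hbb and 940 to 1189 for Hbb-b1. The fit used bulk tissue, in which fewer cells of a type and less RNA per cell cannot be told apart.

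Of the 7 genes on the blood list, 5 had a probe set with 1 symbol, and all 5 were lower at 3 days, 0 of them past the test, with a median of -0.93 against -0.01 over the 3189 genes tested. Hba-a3, an alpha-type globin, read 73.5, 86.1 and 58.4 at 1 day and 42.9, 28.3 and 47.0 at 3 days (-0.83 ± 0.32). The 2 groups did not overlap there either. Alas2, the first enzyme of heme synthesis in red cell precursors, had a mean difference of -0.93 that came from letter b (-2.68, against 0.00 (-0.0029) and -0.10 in letters a and c), and Slc4a1, the anion exchanger of the red cell membrane, had -0.19; both were named after their values were seen. Summed over the 5 genes, the signal was 3422 to 4690 on the 1-day arrays, 1687 to 2288 on the 3-day arrays and 2736 to 3086 on the controls. The 1-day sums were the highest and the 3-day sums the lowest of the series with no overlap. Hbb and Hbb-b1, picked on this difference, supplied most of each sum, so the gap mainly repeats theirs. The sums leave out the globin probe sets with several symbols given next, which were higher at 3 days in letter c. What blood left in the tissue contributed to the other differences was not tested.

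2 further globin probe sets, chosen after their values were seen, match several globin symbols and are given by their identifiers. rc_AI179576_s_at read 2539, 2487 and 1508 at 1 day and 1469, 1495 and 2732 at 3 days, and X56325mRNA_s_at read 2722, 3035 and 1199 at 1 day and 1586, 1420 and 2030 at 3 days. In letters a and b both were lower at 3 days (-0.79 and -0.73, and -0.78 and -1.09), by less than Hbb (-1.34 and -1.21), whereas in letter c both were higher (0.86 and 0.76). Both are among the brightest probe sets of the array, and letter c is the pair in which the brightest signals differed most, as described further on.

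The 3 globin genes whose 3-day arrays all lay below their 1-day arrays are shown, since the globins Hbb and Hbb-b1 led the lower direction and Hba-a3 is the alpha-type member of the blood list, with the 250 bases before their start sites, from RefSeq on the GRCr8 assembly, 5′ to 3′ on the minus strand. The windows are chr1:167663722-167663971 for Hbb, chr1:167643521-167643770 for Hbb-b1 and chr10:15816944-15817193 for Hba-a3. Capitals mark the motifs searched on both strands. They are CCAAT (read as ATTGG on the other strand), the motif CACCC, the motif TATAA (read as TTATA) and the motif CATAAA. The motif GATAA was searched as well.
Hbb: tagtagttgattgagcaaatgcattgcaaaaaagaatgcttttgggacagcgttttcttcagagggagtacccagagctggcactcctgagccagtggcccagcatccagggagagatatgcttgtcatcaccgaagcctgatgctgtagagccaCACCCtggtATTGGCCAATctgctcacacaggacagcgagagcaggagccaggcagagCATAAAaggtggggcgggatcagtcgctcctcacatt
Hbb-b1: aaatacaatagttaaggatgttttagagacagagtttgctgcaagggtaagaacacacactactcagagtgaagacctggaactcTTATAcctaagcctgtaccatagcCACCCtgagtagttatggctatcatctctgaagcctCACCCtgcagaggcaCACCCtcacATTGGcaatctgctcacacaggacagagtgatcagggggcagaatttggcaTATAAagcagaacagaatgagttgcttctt
Hba-a3: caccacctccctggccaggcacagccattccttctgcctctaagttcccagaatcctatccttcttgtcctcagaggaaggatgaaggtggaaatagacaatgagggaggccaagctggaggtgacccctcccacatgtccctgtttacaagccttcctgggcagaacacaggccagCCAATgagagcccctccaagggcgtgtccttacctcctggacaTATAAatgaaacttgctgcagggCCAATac
Before their start sites Hbb and Hbb-b1 shared 58.8% of aligned positions, Hbb and Hba-a3 45.1% and Hbb-b1 and Hba-a3 44.3%. CCAAT on either strand was in all 3 windows, with its first base at -81 and -86 in Hbb, at -81 in Hbb-b1 and at -73 and -7 in Hba-a3. TATAA was at -30 in Hbb-b1 and Hba-a3 and, on the other strand, at -165 in Hbb-b1, and Hbb held CATAAA at -37. CACCC was once in Hbb, at -95, and at -141, -105 and -90 in Hbb-b1. Among all 33469 windows of this length in the table, 34.0% held CCAAT, 49.2% held CACCC, 24.0% held TATAA, 11.4% held CATAAA and 23.5% held GATAA, which was not among the letters of these 3 windows. The matches describe the letters only.

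10 more genes made up the 12 that led the lower direction. Slc25a20, the carrier that brings acylcarnitines into mitochondria for fatty acid oxidation, read 82.0, 60.1 and 91.9 at 1 day and 44.2, 15.3 and 32.6 at 3 days (-1.32 ± 0.28, unadjusted p 0.001194). The groups did not overlap. Me1, the cytosolic malic enzyme that supplies NADPH for lipid synthesis, read 83.2, 149.7 and 182.1 at 1 day and 36.3, 94.5 and 78.1 at 3 days (-0.98 ± 0.21). The groups overlapped because letter a was low at both times. The other 3 tested Me1 probe sets were also lower, by -0.34, -0.41 and -0.88, and 1 more, at a mean signal of 17.7, was under the filter.

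COX2, the mitochondrially encoded subunit 2 of cytochrome c oxidase, read 1137, 1178 and 1924 at 1 day and 500, 852 and 687 at 3 days (-1.04 ± 0.25, unadjusted p 0.002726). The 1-day and 3-day arrays did not overlap, but the controls, at 785 to 1331, overlapped both. Pgk1, a glycolytic kinase that makes ATP, read 653, 1327 and 1178 at 1 day and 533, 616 and 540 at 3 days (-0.84 ± 0.21). Its 3-day arrays were uniform and its gap in letter a was small. A second Pgk1 probe set differed by only -0.10 ± 0.21, so the 2 tested probe sets of this gene disagreed. A further Pgk1 probe set, at a mean signal of 13.3, was under the filter, and its letters differed by -0.96, -0.10 and 0.61.

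Among the remaining genes of the 12, Pafah1b1, which regulates the dynein motor, read 781, 752 and 852 at 1 day and 508, 608 and 474 at 3 days (-0.59 ± 0.19). Its groups did not overlap, and its second probe set gave -0.27 ± 0.19. Ubqln1, which hands ubiquitinated proteins to the proteasome, differed by -0.62 ± 0.18 and Hikeshi, the importer of heat shock protein of the Hsp70 family into the nucleus, by -0.77 ± 0.23. Slc4a7, a sodium bicarbonate cotransporter, differed by -0.69 ± 0.22 and Ccdc117 by -0.92 ± 0.27, each with no overlap between the groups. Fat1, a giant cadherin, read 132.1, 12.7 and 21.2 at 1 day and 25.2, 6.1 and 9.6 at 3 days (-1.28 ± 0.42), a difference largest in letter a (-2.22) and at low signals in the others.

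These 12 genes too were picked on this difference. In 8 of them the groups did not overlap, which was so in this direction for 2.67% of all tested probe sets, and in all 12 the lowest of the 9 arrays was a 3-day array and the mean of the controls lay between the 2 times. Of the 12, 9 were measured by probe sets whose identifiers begin with rc_, against 2 of the 12 that led the higher direction. That prefix marked 2121 of the 5247 tested probe sets (40.42%). Its probe sets had a median difference of -0.11 and supplied 95 of the 152 at an unadjusted p under 0.05 in the lower direction and 34 of the 123 in the higher one, whereas the others had a median of 0.07. The medians by letter were -0.02, -0.09 and -0.20 with the prefix and 0.01, 0.04 and 0.12 without it. Its part in the differences was not tested.

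The brightest probe sets of the hormone genes had higher means at 3 days, but to an extent that rested on letter c. Avp read 3189, 3292 and 1622 at 1 day and 3871, 4108 and 5678 at 3 days (0.80 ± 0.32, unadjusted p 0.03275, limma adjusted p 0.7705). The 3-day arrays all lay above the 1-day arrays, yet the gap was 0.28 in letter a, 0.32 in letter b and 1.81 in letter c. Without letter c the difference was 0.30, and with quantile normalization it was 0.32. Oxt read 2816, 3318 and 272 at 1 day and 3910, 3219 and 4356 at 3 days (1.47 ± 0.74). In Oxt the 1-day array of letter c was far below the others, as was control c at 208, and without letter c the difference was 0.21. A second Avp probe set, M25646_at, read 653, 1790 and 0.1 at 1 day and 2584, 1053 and 2739 at 3 days. It was higher in letter a (1.98), lower in letter b (-0.76) and, from a 1-day signal near 0, higher in letter c (9.39).

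Pdyn, the precursor of dynorphins that is made with vasopressin, read 940, 448 and 710 at 1 day and 815, 806 and 1120 at 3 days (0.43 ± 0.23). The groups overlapped and letter a was lower at 3 days. Vgf, a secreted neuropeptide precursor, read 663, 642 and 666 at 1 day and 550, 837 and 832 at 3 days (0.14 ± 0.19). Cck, the peptide cholecystokinin, read 20, 85.1 and 51.0 at 1 day and 82.6, 72.0 and 37.8 at 3 days (0.41 ± 0.46), so only letter a was higher. Th, the enzyme that starts catecholamine synthesis, was almost level, with 282, 227 and 337 at 1 day and 256, 270 and 349 at 3 days (0.05 ± 0.17). Galanin (Gal) differed by -0.35 ± 0.30, mostly in letter a.

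**Figure D3:**
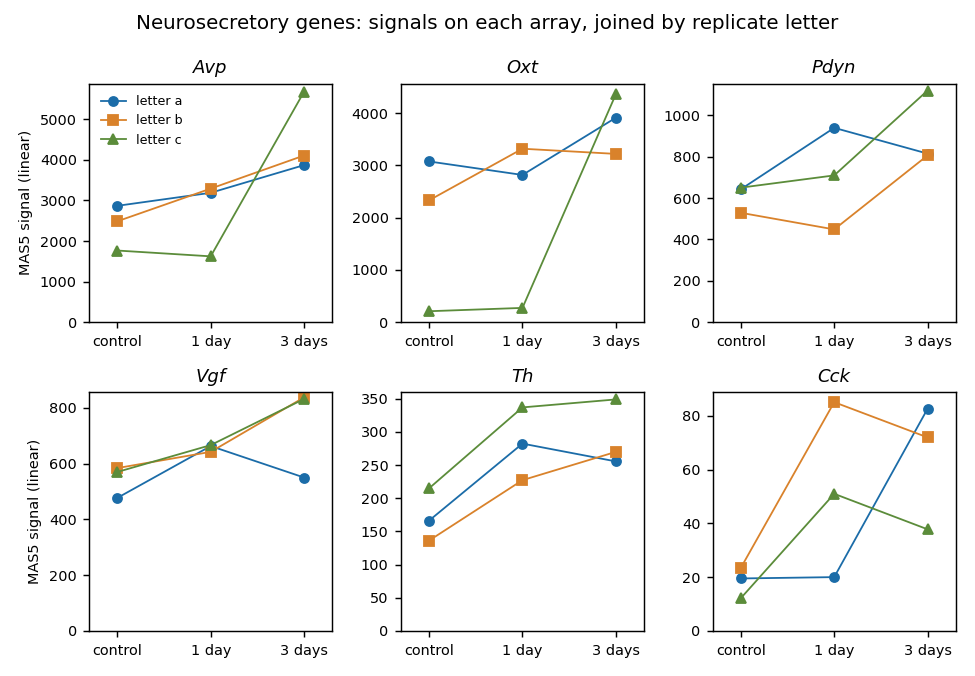
MAS5 signal (linear axis from 0) on each array for 6 neurosecretory genes, joined by replicate letter. In Avp and Oxt letter c has the lowest control and 1-day signals of the 9 arrays and also the highest signal at 3 days, while Th at 227 to 337 at 1 day and 256 to 349 at 3 days is nearly level in every letter.

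The list of hormones and coexpressed peptides split evenly among its 14 tested genes, 7 higher and 7 lower (median -0.02). Its letter medians were -0.09, -0.06 and 0.47. The list of granins and of the enzymes that cut prohormones had 8 of 15 higher and a median of 0.03, although the median within each letter was slightly below 0 (-0.038, -0.026 and -0.002). Chgb, a granin of the secretory granule, read 319, 558 and 306 at 1 day and 339, 249 and 306 at 3 days (-0.35 ± 0.27), a difference seen only in letter b. Pcsk2, a convertase that cleaves prohormones, differed by 0.32 ± 0.25 and was lower in letter a. Furin, another convertase, chosen after its values were seen, had probe sets that disagreed: X55660_at differed by 1.95 ± 0.45 and X55660_g_at by 0.30 ± 0.44. X55660_at read 23.4, 19.0 and 15.0 in controls, 30.2, 27.5 and 5.1 at 1 day and 92.8, 64.1 and 82.3 at 3 days. It passed the filter of 23.1 only with its 3-day signals.

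Among the very brightest genes the letter pairs differed in the same way as in Avp. The 263 tested probe sets in the top 5 percent of mean signal had a median difference of 0.23, with 204 higher and 59 lower, and their medians by letter were 0.07, 0.11 and 0.50. The highest signal of any probe set was 3954, 4137 and 2239 on 1-day arrays a, b and c and 4830, 4854 and 6295 on the 3-day arrays, so letter c joined the dimmest and the brightest top end of the 6. In letter c the probe sets just below that class differed the other way, with a median of -0.16, against -0.01 in letter a and 0.07 in letter b. Values below 4 made up 18.01% of 1-day array c and 12.12% of 3-day array c. The ratios of 3′ to 5′ control probes for beta-actin were 1.13 to 1.48 at 1 day and 0.99 to 1.43 at 3 days, and for Gapdh 0.85 to 1.05 and 0.89 to 1.55, with the highest value on 3-day array c. The same ratio for hexokinase was 4.81 on 1-day array c, 1.23 and 1.88 on the other 1-day arrays and 1.60 to 2.39 at 3 days. Scanner files were not used, and how the lower top end of 1-day array c arose was not tested. The part of these ratios in the differences was not tested. Some bright genes are given with and without letter c, and a difference printed alone can also rest on that letter.

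**Figure D4:**
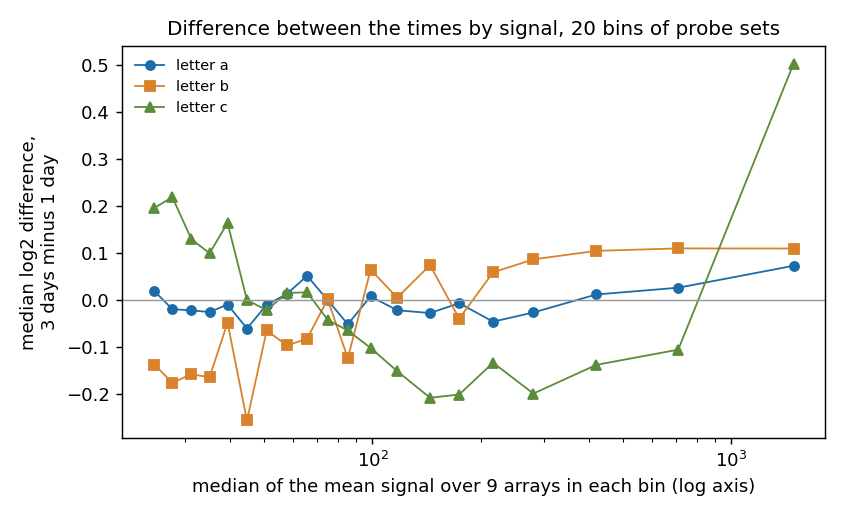
Median difference between 3 days and 1 day in 20 bins of tested probe sets, against the median signal of the bin (log axis), for each replicate letter. Letters a and b stay near 0 in the brightest bin (0.07 and 0.11), whereas letter c reaches 0.50 there after lying below 0 in the bins just before it. In the dimmest bin the medians are 0.02, -0.14 and 0.20 in letters a, b and c.

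Atp1b1, a beta subunit of the sodium-potassium pump, read 3734, 3019 and 1273 at 1 day and 4182, 4190 and 5340 at 3 days (0.90 ± 0.37). Without letter c its difference was 0.32, and its other 2 probe sets gave 0.46 and -1.24. Actg1, a cytoplasmic actin, differed by 1.02 ± 0.35, and by 0.50 without letter c. Rps16, a ribosomal protein, differed by 0.79 ± 0.27, and by 0.36 without it. Uchl1, an abundant neuronal deubiquitinase, differed by 0.68 ± 0.31, and by 0.16 without it. In all of them the 1-day array of letter c was the lowest of the 6.

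3 bright genes had more even letters. Atp5f1b, the catalytic beta subunit of ATP synthase, read 1446, 1496 and 1533 at 1 day and 1926, 1934 and 2328 at 3 days (0.46 ± 0.19, unadjusted p 0.03591). Ckmt1, the mitochondrial creatine kinase, read 539, 459 and 427 at 1 day and 727, 644 and 564 at 3 days (0.44 ± 0.19). Snap25, a SNARE protein of vesicle fusion, read 948, 868 and 880 at 1 day and 1154, 1187 and 1228 at 3 days (0.40 ± 0.19). The 1-day and 3-day arrays did not overlap in any of the 3, and without letter c the differences were 0.39, 0.46 and 0.37. With quantile normalization Atp5f1b came down to 0.15 while Ckmt1 kept 0.43. The controls of Ckmt1 (663, 785 and 816) and of Atp5f1b (1534 to 1714) were above the 1-day arrays, and those of Snap25 spanned 829 to 1232. The other Ckmt1 probe set gave 0.11, and the 3 others of Snap25 ran from -0.52 to 1.12.

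No member of the 31 gene lists passed the test. The medians of 4 lists were higher at 3 days in all 3 letters, those of 7 were lower in all 3 and those of 20 were mixed. Over all 3189 genes tested, 49.2% were higher and 50.8% lower, 12.4% were higher in all 3 letters and 12.7% lower in all 3. The medians of each letter are drawn in the plot of the gene lists.

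**Figure D5:**
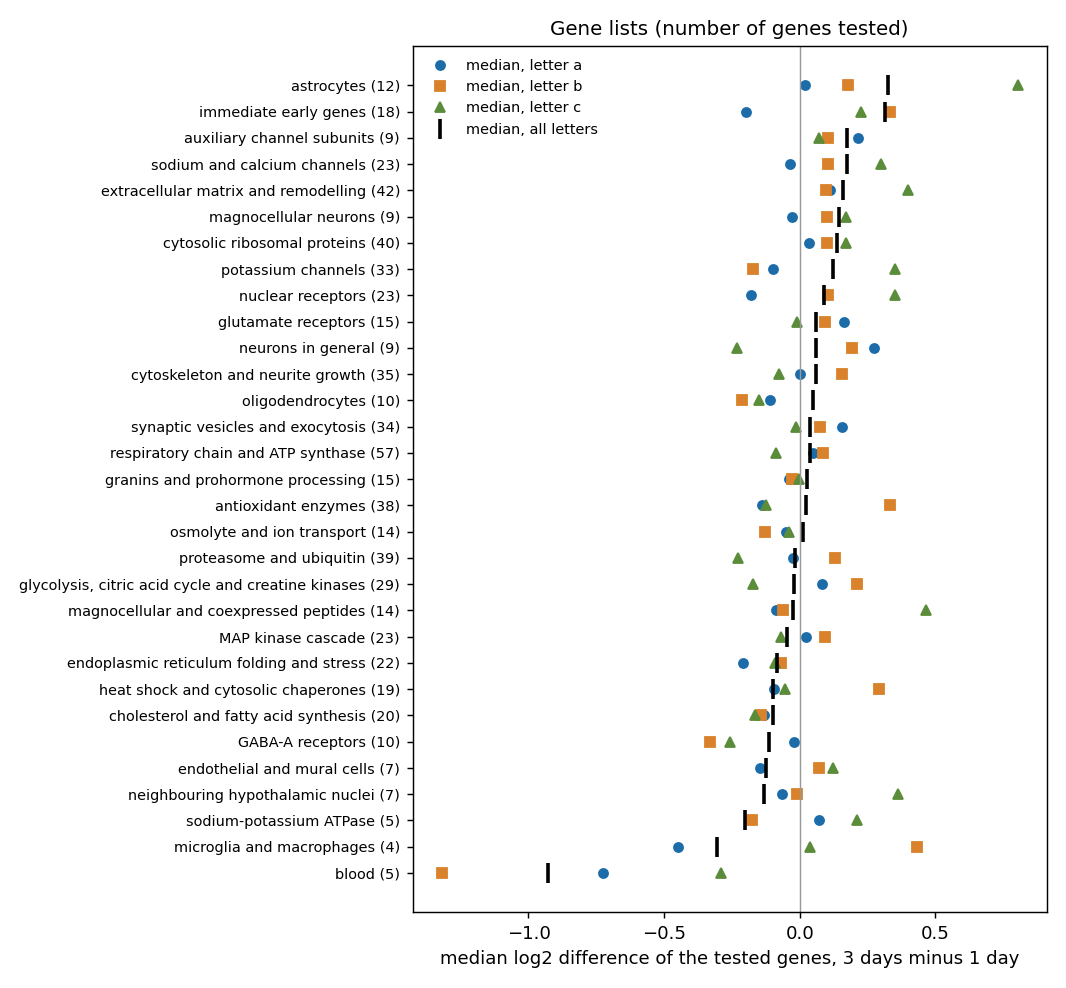
Median difference between 3 days and 1 day (log2 of signal + 4) over the tested genes of each of 31 lists, by replicate letter (coloured points) and over the fit (black ticks), with the number of genes tested in brackets. Blood is lowest at -0.93, with all 3 letters below 0, and astrocytes are highest at 0.32 with letter c at 0.80 and letters a and b at 0.02 and 0.18.

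Astrocyte markers stood highest of the lists, at a median of 0.32, and 11 of the 12 tested were higher. The letter medians were 0.02, 0.18 and 0.80, and without letter c the median was -0.03 with 5 genes higher and 7 lower. Aldoc, a glycolytic aldolase of astrocytes, read 2866, 2970 and 1263 at 1 day and 3323, 3442 and 4356 at 3 days (0.74 ± 0.34, and 0.21 without letter c). Apoe, the lipid carrier secreted by astrocytes, differed by 0.62 ± 0.28, and by 0.26 without letter c. Aqp4, the water channel of astrocyte endfeet, was the 1 gene on the list that was lower: it read 145.6, 205.1 and 80.3 at 1 day and 115.9, 154.2 and 33.3 at 3 days (-0.63 ± 0.24). It was lower in all 3 letters, although the groups overlapped. The summed signal of the list was 10860 to 17840 at 1 day and 17350 to 23520 at 3 days.

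Oligodendrocyte markers split evenly, with 5 higher and 5 lower, and 5 of the 10 were lower in all 3 letters. Their median was 0.05 in the fit but -0.11, -0.21 and -0.15 within the letters, and -0.17 without letter c. Sox10, a transcription factor of the oligodendrocyte lineage, read 77.4, 75.7 and 78.7 at 1 day and 57.6, 42.9 and 37.6 at 3 days (-0.72 ± 0.26). Its 1-day arrays were close together and all above the 3-day arrays. Mog, a protein of the outer myelin surface, was lower by similar steps in the 3 letters (-0.40, -0.43 and -0.37; -0.40 ± 0.17), whereas its other probe set gave 0.85 ± 0.45. Mbp, the major protein of compact myelin, read 2947, 1751 and 1166 at 1 day and 3466, 998 and 3840 at 3 days (0.38 ± 0.45). The letters disagreed on Mbp, which differed by -0.29 without letter c. The summed signal of the list overlapped widely, at 4682 to 8802 at 1 day and 4151 to 8775 at 3 days.

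Of the markers of neurons in general, 6 of 9 were higher (median 0.06). The letter medians were 0.27, 0.19 and -0.23, and without letter c the median was 0.24 with 8 of 9 higher. Gap43, a growth cone protein, read 974, 1073 and 980 at 1 day and 928, 589 and 850 at 3 days (-0.38 ± 0.20), with no overlap. The magnocellular list, which holds Avp and Oxt, had 5 of 9 higher, with a median of 0.14, or 0.09 without letter c. Its summed signal was 3973 to 8578 at 1 day and 9653 to 12560 at 3 days. From 1 day to 3 days the sum went from 8253 to 9653 in letter a, 8578 to 9814 in b and 3973 to 12560 in c. As a check of the tissue label, the brighter Avp probe set read at least 1622 on all 6 arrays, and Oxt at least 2816 on all but 1-day array c, on which the second Avp probe set was also near 0. Markers of the neighbouring nuclei had 3 higher and 4 lower of 7 tested, with Crh, Vip and Pomc too dim to test and sums of 1703 to 2731 at 1 day and 1575 to 2725 at 3 days. There were 3 higher and 4 lower of 7 among those of endothelial and mural cells and 2 and 2 of 4 among those of microglia and macrophages. In the vascular list Slco1a4, a transporter of the blood-brain barrier, differed by -0.60 ± 0.24 and Pecam1, an endothelial adhesion molecule, by 0.54 ± 0.33. The vascular sum was 463 to 485 at 1 day and 445 to 448 at 3 days, a small gap with no overlap.

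Of the immediate early genes, which neurons switch on within minutes of strong input, 14 of 18 tested were higher (median 0.31). The letters did not share it, since letter a had a median of -0.20 and letters b and c had 0.33 and 0.23. Fos read 224, 158 and 253 at 1 day and 177, 204 and 298 at 3 days (0.09 ± 0.20). Junb differed by 0.45 ± 0.27, Arc by 0.36 ± 0.23 and Egr1 by 0.26 ± 0.18, each higher in all 3 letters, though the other Egr1 probe sets ran from -0.93 to 0.06. Jund differed by -0.65 ± 0.39, lower in all 3. Jun, chosen after its values were seen, had 4 probe sets that disagreed, and the brightest differed by -0.21 ± 0.24. By contrast rc_AA944014_at read 3.6, 4.5 and 1.8 at 1 day and 24.6, 69.5 and 20.4 at 3 days (2.37 ± 0.49). That probe set read 20.4, 40.9 and 23.2 in controls and passed the filter of 23.1 only with its 3-day signals.

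Among ion channels, the potassium channels had 19 of 33 tested members higher (median 0.12) and the sodium, calcium and chloride channels 17 of 23 (median 0.17). The potassium channel median rested on letter c: the letters had -0.10, -0.17 and 0.35, and without letter c it was -0.05 with 16 higher and 17 lower. The other list had letter medians of -0.03, 0.10 and 0.30, and without letter c its median was 0.08 with 13 higher and 10 lower. Apart from Kcnab1, Kcnj16, an inward rectifier, read 50.0, 119.7 and 75.7 at 1 day and 37.7, 45.2 and 50.0 at 3 days (-0.75 ± 0.33), and its other probe set gave -0.11 ± 0.29. Clcn7, a chloride transporter of lysosomes, read 26.8, 23.3 and 21.0 at 1 day and 48.8, 53.6 and 43.4 at 3 days (0.93 ± 0.32). Its 3-day arrays were all about the same step above the 1-day arrays, by 0.78, 1.08 and 0.92. Scn8a, a sodium channel of neurons, differed by 0.94 ± 0.44 but was lower in letter a. The auxiliary subunits, Kcnab1 among them, had 6 of 9 higher, and Cacnb1, a calcium channel beta subunit, differed by 0.86 ± 0.41, mostly in letter b (2.07).

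Of the receptors for the transmitters that reach these neurons, GABA-A subunits had 2 higher and 8 lower of 10 tested, with a median of -0.11 and 0 of 10 in the same direction in all 3 letters. Gabrd had the largest mean difference of the 3 members named here by p, -0.60 ± 0.59, with a difference of 1.23 in letter a and -2.18 in letter b, and its other probe set gave 0.80 ± 0.37. Glutamate receptor subunits had 8 higher and 7 lower. Grik2, a kainate receptor subunit, read 38.2, 66.9 and 46.5 at 1 day and 31.7, 24.2 and 14.0 at 3 days (-1.02 ± 0.36), with no overlap. Grin1 and Grin2b, subunits of the NMDA receptor, differed by 0.41 ± 0.24 and 0.43 ± 0.26, and a second Grin1 probe set gave -0.16 ± 0.56.

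Transporters of osmolytes and ions had 7 of 14 members higher. Slc12a5, the potassium chloride cotransporter that keeps neuronal chloride low, read 455, 450 and 556 at 1 day and 563, 708 and 581 at 3 days (0.34 ± 0.18), with no overlap. Slc12a2, which brings chloride in, differed by -0.23 ± 0.19. Slc12a3, the thiazide-sensitive cotransporter, read 52.5, 53.3 and 36.5 at 1 day and 27.5, 10.6 and 32.5 at 3 days (-0.99 ± 0.49). The controls of Slc12a3 were 50.3, 8.5 and 16.7, so they spanned nearly the whole range. Genes of vesicle release had 19 of 34 higher, and Snap91, a clathrin adaptor of synapses, differed by -0.65 ± 0.24, lower in all 3 letters.

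Genes of protein synthesis and turnover gave small medians. Cytosolic ribosomal proteins had 24 of 40 higher and a median of 0.14, which was 0.00 (-0.0029) after quantile normalization, with 20 higher and 20 lower. For endoplasmic reticulum folding and stress, 9 of 22 tested genes were higher, and the median of -0.08 was negative in all 3 letters. Hspa5, the main chaperone of that compartment, read 360, 461 and 491 at 1 day and 314, 484 and 355 at 3 days (-0.20 ± 0.18). Among proteasome and ubiquitin genes, 19 of 39 were higher. Psme1, a proteasome activator subunit, read 546, 474 and 451 at 1 day and 872, 523 and 1424 at 3 days (0.82 ± 0.29). Without letter c the difference was 0.41, and the second Psme1 probe set gave -0.22 ± 0.19. Ube2a, a ubiquitin-conjugating enzyme, differed by -0.60 ± 0.21 and Psmb2, a subunit of the proteasome core, by -0.53 ± 0.20, both lower in all 3 letters.

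Of the 20 tested genes of cholesterol and fatty acid synthesis, 7 were higher and 13 lower. Their median was -0.10, and the letter medians were -0.13, -0.14 and -0.16. 5 of the 20 were lower in all 3 letters and 0 higher in all 3. Msmo1, an oxidase that trims sterols, read 420, 693 and 597 at 1 day and 323, 584 and 409 at 3 days (-0.39 ± 0.17). The groups overlapped because letter a was low at both times. Among 38 antioxidant enzymes 19 were higher. Nqo1, a quinone reductase, differed by -0.94 ± 0.33, Hmox1, which degrades heme, by -0.59 ± 0.26, and Txnrd1, a thioredoxin reductase, by -0.54 ± 0.23, each lower in all 3 letters, although the second Txnrd1 probe set gave 0.15 ± 0.25.

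Extracellular matrix and remodelling genes had 29 of 42 members higher, with a median of 0.16 that was positive in all 3 letters (0.11, 0.10 and 0.40). Beside Mmp2, described above, Mmp11, another protease, read 7.2, 13.1 and 20.1 at 1 day and 19.9, 34.6 and 39.3 at 3 days (1.04 ± 0.47). With means of 31.3 in controls and 13.5 at 1 day, Mmp11 passed the filter of 23.1 only with its 3-day signals. Col1a2, a chain of type I collagen, read 44.4, 78.7 and 44.2 at 1 day and 22.8, 36.3 and 29.0 at 3 days (-0.81 ± 0.29), with no overlap. Cytoskeleton and neurite genes had 20 of 35 higher, and the nuclear receptors 14 of 23. Esrra, a nuclear receptor that acts on genes of mitochondria, read 15.1, 26.8 and 59.8 at 1 day and 13.5, 6.7 and 12.9 at 3 days (-1.19 ± 0.46). Nr3c2, the mineralocorticoid receptor, read 34.0, 4.8 and 9.0 at 1 day and 47.4, 21.6 and 27.5 at 3 days (1.08 ± 0.55). Both are dim, and their 1-day signals spread widely. Nr3c2, with means of 23.07 in controls and 15.9 at 1 day, passed the filter of 23.11 only with its 3-day signals.

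Energy metabolism as a whole had no common direction. The respiratory chain and ATP synthase had 34 of 57 members higher and a median of 0.04, with COX2 low and Atp5f1b high within it. The other mitochondrially encoded subunits of cytochrome c oxidase, chosen after their values were seen, had higher means: COX1 differed by 0.37 ± 0.21 (0.57, 0.05 and 0.50 in the letters) and COX3 by 0.23 ± 0.37 (0.20, -0.54 and 1.02). Ndufs4, a subunit of respiratory complex I, differed by -0.42 ± 0.18 and was lower in all 3 letters, while its second probe set gave -0.13 ± 0.27. Glycolysis, the citric acid cycle and creatine kinases had 14 of 29 higher, with Hk2 and Ckmt1 high and Pgk1 low. MAP kinase genes had 11 of 23 higher, with Mapkapk3 high and Mapk6, an atypical kinase of that family, at -0.67 ± 0.24.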

How the data were processed

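RNA of the supraoptic nucleus was measured on 9 Affymetrix arrays, 3 each of control, 1 day and 3 days of dehydration. The authors deposited linear intensities; the submitters' processing notes name MAS5, with the version not given in the sources used here. Dim signals are imprecise in MAS5. From the deposited intensities, log2(signal + 4) was computed, with the scaling of the authors kept. Of 8740 probe sets that are not Affymetrix controls, 7006 had 1 gene symbol in the platform annotation, 308 several and 1426 none. Of the 7006, 6985 matched the RefSeq gene table by ID. The filter dropped probe sets averaging below 23.1 (the 40th percentile) and kept 5247. A gene is given by its brightest probe set with 1 symbol. Other probe sets of a gene are those that passed the filter, unless said otherwise.

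limma 3.58.1 in R 4.3.3 fitted group means with the replicate letter as a block to all 9 arrays (residual degrees of freedom: 4). Tests were two-sided and moderated with an intensity trend in the prior, and Benjamini-Hochberg adjustment ran over 5247 probe sets, with a threshold of 0.05; every p in the text is from it. Pairing by letter was checked after subtraction of group means. All 9 same-letter pairs correlated, with r from 0.17 to 0.47, against -0.33 to 0.12 for other letters. Between 1-day and 3-day arrays the same-letter r was 0.44 in letter a, 0.18 in b and 0.17 in c. Deviations within a group sum to 0, so positive same-letter values go with negative ones for other letters. The labels do not say what a letter stands for. The fit was tested on simulated data.

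The comparison, the lists and the tests were chosen with earlier results of these data known. Named are the 12 genes a direction with the smallest unadjusted p among those in 1 direction in all 3 letters, up to 3 members of each of 31 lists by p, and 18 genes of interest in dehydration, of which those without a probe set with 1 symbol (Hba-a1 and Gfap among them) were not analysed here. Not all named genes are printed. Alternatives were the fit without the block or on the 6 dehydrated arrays only, pseudocounts of 1 and 16, no filter or one set at the 60th percentile, median centring, quantile normalization, a prior with no trend or a robust one, all probe sets of a gene, and arrays or letters left out. Detection calls and scanner files were not used. The number of arrays limits the precision. Promoters were read from RefSeq (GRCr8) and aligned with Biopython 1.88; Python 3.11.15 and matplotlib 3.10.9 drew the figures.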

Additional observations from a re-analysis of the deposited data

How the results depend on the processing

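The count of 0 called probe sets held under all 20 alternatives, with a smallest adjusted p of 0.2126 in any of them (no intensity trend). The 275 probe sets at an unadjusted p under 0.05 became 96 without the replicate block, 119 on only the 6 dehydrated arrays and 455 without the filter, and leaving out arrays or letters gave 185 (without 3-day c) to 397 (without 1-day a). The paired fit, with the letter as a block, is the one reported. The 24 genes that led a direction kept their sign in each alternative that tested them. They were chosen for 1 direction in all 3 letters, so leaving out a letter could not reverse them. Their kept signs are therefore no test of these genes. Of 112 named genes, 16 reversed in 32 of 2100 refits. Over all probe sets of the gene, the reversed differences were -0.097 for Ghrh, 0.22 for Mog, 0.10 for Gabrd and -0.18 for Egr1. With an array or letter left out, differences ran from -0.46 to 0.0021 for Gnrh1, -0.057 to 0.55 for Npy, -0.010 to 0.92 for Cd14, -2.01 to 0.82 for Lyz2, -0.61 to 0.045 for Chgb, -1.52 to 0.19 for Gabrd, -0.95 to 0.25 for Gabra6, -0.64 to 0.17 for Gabra4, -0.31 to 0.81 for Cck, -0.65 to 0.0085 for Gal, -0.051 to 0.15 for Th, -0.048 to 0.30 for Fos and -0.29 to 1.02 for Mbp. Leaving out control c and 1-day c gave 0.17 for Gabra4 and -0.29 for Mbp. None of these passed the test, and the causes were not tested. Of 589 list medians recomputed, 513 moved by less than the spread between letters and 76 by more. Values near 0 carry little information, and 3 arrays a group limit the precision.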
